A study of Homo sapiens with 6 samples.

Results

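The enzymes that crosslink collagen and help it fold were examined in PC3 cells, an established human prostate cancer line that was isolated from a metastasis in bone. The 10 genes comprised the lysyl oxidases LOX, LOXL1, LOXL2, LOXL3 and LOXL4, the lysyl hydroxylases PLOD1, PLOD2 and PLOD3, the prolyl hydroxylase subunit P4HA3 and the collagen chaperone SERPINH1. They were taken by gene symbol from the 24462 symbols in the count files, and all 10 were found, each on 1 row, and passed the filter on low counts with 16314 genes in all. The study compared 3 libraries labelled si-Control, from PC3 cells given a non-targeting siRNA, with 3 libraries labelled si-CITED2, from PC3 cells given siRNA against CITED2, a coregulator that binds p300. Both siRNAs were used at 80 nM, and both groups were grown in the same serum-containing medium. The methods list a single sequence for CITED2 and a single control sequence, although the labels speak of siRNAs, so an effect of CITED2 and an effect particular to one of these siRNAs cannot be told apart. The study states that the transfections were independent experiments.

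Collagen chains are modified and folded in the endoplasmic reticulum before they leave the cell. Prolyl 4-hydroxylases hydroxylate prolines and so stabilise the triple helix, lysyl hydroxylases hydroxylate lysines, and SERPINH1, also called HSP47, binds the folded helix until it is exported. Outside the cell, lysyl oxidases convert lysines and hydroxylysines to aldehydes, which then form the crosslinks between collagen or elastin molecules. PLOD2 hydroxylates the lysines of the telopeptides, which leads to crosslinks of the more stable kind. Crosslinked collagen stiffens tumor matrix, and LOX, LOXL2, PLOD2 and the P4HA genes are known in other cells as targets of hypoxia-inducible factor and of TGF-beta. CITED2 is known to compete with hypoxia-inducible factor for p300.

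The total count was between 19508925 and 28936374 per library, and 3 counts, taken as the smallest detectable number, corresponded to between 0.104 and 0.154 CPM, the normalised count scaled to a common library size. The mRNA of CITED2 itself lay at 36.5, 37.9 and 32.8 CPM in si-Control and at 46, 39.1 and 41.8 CPM in the libraries labelled si-CITED2. It was higher in the latter (log2 fold change 0.24, SE 0.0744, adjusted p = 0.0363 by the quasi-likelihood test of edgeR), so the targeted mRNA went against the label. That call was lost in 4 of the 6 fits that left out a library (log2 fold changes from 0.17 to 0.29). The study checked the knockdown on the CITED2 protein, which was not measured in these files. Every direction given for the libraries labelled si-CITED2 therefore rests on the labels alone. The epithelial markers KRT8, KRT18, EPCAM and CDH1 were all present, with a summed level of 1469 to 1550 CPM in si-Control and 1602 to 1740 CPM in the libraries labelled si-CITED2. KRT8 and KRT18 were higher and EPCAM and CDH1 were lower in the latter. KLK3, a marker of androgen-responsive prostate cells that this line is known to lack, had at most 2 counts. The 8 fibroblast markers, which include DCN, LUM and COL1A2, had at most 18 counts each and summed to 0.377 to 1.2 CPM in si-Control and 0.852 to 1.91 CPM in the libraries labelled si-CITED2. None of these 8 passed the filter, and their part in the results was not tested. In bulk RNA, fewer cells of a type and less RNA per cell cannot be told apart.

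Of the 10 genes, 3 rose in the libraries labelled si-CITED2 at an adjusted p under 0.05 (edgeR's quasi-likelihood test, Benjamini-Hochberg over all genes tested), namely PLOD2, LOXL2 and P4HA3. None fell by this test, at an unadjusted p under 0.05 (0 genes) or by DESeq2 (0 genes), and 7 did not pass. Among all genes tested, 9.36% were called higher and 8.09% lower, so that 17.4% were called in either direction. The median log2 fold change was 0.28 over the 10 genes and -0.0014 over all 16314. In 4 of the 10 genes all libraries labelled si-CITED2 lay above all si-Control libraries, and in 0 of them below, whereas in 16.4% of all genes tested they lay above and in 16.1% below. The fourth of these genes was LOX.

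**Figure D1:**
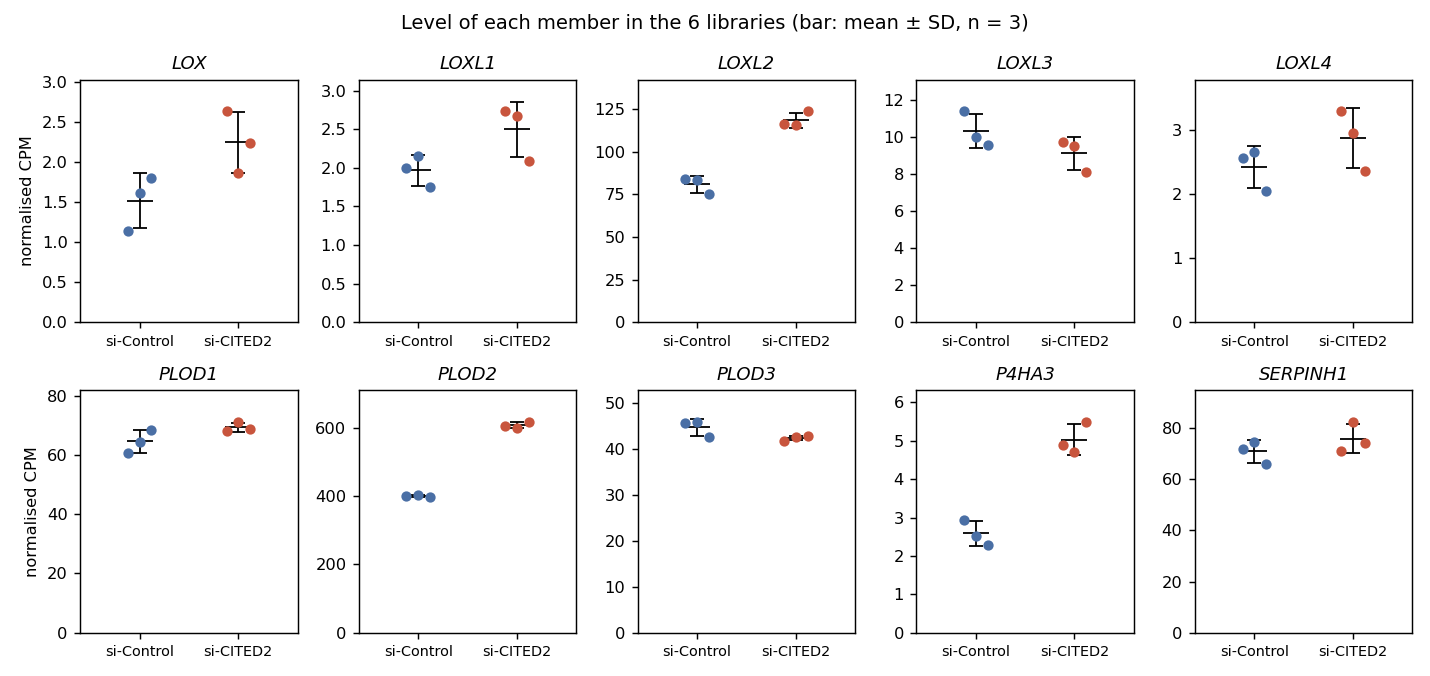
Normalised CPM (vertical axis, from 0) of the 10 genes in the 3 si-Control libraries and the 3 libraries labelled si-CITED2, with points for libraries and bars for mean ± SD. PLOD2, LOXL2, P4HA3 and LOX show no overlap between the groups, while the other 6 genes do.

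The promoters of the 3 lysyl hydroxylase genes are shown because these paralogues, which share a reaction, differed in their response. The sequences are those of RefSeq (GRCh38.p14), cut to the 250 bases before the annotated start, and are matched to the genes by symbol. Capitals mark ACGTG and GCGTG, the core letters of the hypoxia response element, and CAGAC, the letters of a SMAD box, each on either strand. The windows are chr3:146161185-146161434 (minus strand) for PLOD2, chr1:11934467-11934716 (plus strand) for PLOD1 and chr7:101217582-101217831 (minus strand) for PLOD3.
PLOD2: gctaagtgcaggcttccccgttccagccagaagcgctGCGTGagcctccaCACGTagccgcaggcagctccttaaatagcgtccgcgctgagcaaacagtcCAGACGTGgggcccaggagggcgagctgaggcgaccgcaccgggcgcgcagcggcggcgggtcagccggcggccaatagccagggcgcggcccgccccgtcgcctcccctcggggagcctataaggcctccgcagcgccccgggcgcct
PLOD1: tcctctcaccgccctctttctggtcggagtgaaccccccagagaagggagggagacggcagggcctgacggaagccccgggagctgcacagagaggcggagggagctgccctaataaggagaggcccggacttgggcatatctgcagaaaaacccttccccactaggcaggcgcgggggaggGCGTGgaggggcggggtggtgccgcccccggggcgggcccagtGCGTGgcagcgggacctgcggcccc
PLOD3: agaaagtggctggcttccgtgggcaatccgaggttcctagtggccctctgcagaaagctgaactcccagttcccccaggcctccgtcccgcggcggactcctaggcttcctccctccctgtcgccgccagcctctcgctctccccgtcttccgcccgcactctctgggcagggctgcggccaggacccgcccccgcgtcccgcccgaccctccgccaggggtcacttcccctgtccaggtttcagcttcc

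The PLOD2 window held ACGTG 2 times, with the first base of the match 200 bases (as its complement) and 146 bases before the start, GCGTG 1 time at 213 bases and CAGAC 1 time at 149 bases. The last of these overlaps the second ACGTG, so both share letters in the run CAGACGTG. The PLOD1 window held GCGTG 2 times and neither of the other motifs, and the PLOD3 window held none of the 3. Of all 35116 windows of this length in the same table, 18.5% held ACGTG, 32.2% held GCGTG and 38% held CAGAC. For the 10 genes, 8 had an entry, with 12 windows, and LOXL2 and P4HA3 had none. Genes that were not called held the motifs too. The first of the 3 LOX windows held ACGTG 4 times and CAGAC 1 time, and each of the other LOX windows held all 3 motifs. Those other LOX windows overlap each other, so most of their matches are the same letters counted in both. Of the 2 SERPINH1 windows, 1 held ACGTG 1 time and GCGTG 2 times and the other held none. Of the 2 LOXL3 windows, 1 held GCGTG 1 time and the other held none. The LOXL4 window held none of the motifs. The LOXL1 window held CAGAC 1 time. These matches describe letters and not binding.

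Among the lysyl hydroxylases, PLOD2 was both the most abundant and the one that rose. It lay at 400.4, 402.5 and 397.6 CPM in si-Control replicates 1, 2 and 3, and at 605.3, 598.7 and 616.4 CPM in the libraries labelled si-CITED2. The spread within each group was small beside the gap between them. The mean went from 400.2 ± 2.46 to 606.8 ± 8.9 CPM (SD, n = 3), a log2 fold change of 0.60 (SE 0.0441, 95% interval 0.51 to 0.69, adjusted p = 4.54e-08 from edgeR), or 1.52-fold. PLOD1, which hydroxylates lysines of the helix, lay at 60.8, 64.5 and 68.5 CPM in si-Control and at 68.2, 71.1 and 68.6 CPM in the libraries labelled si-CITED2, and the groups overlapped. Its log2 fold change was 0.10 (95% interval -0.02 to 0.23, adjusted p = 0.264 from edgeR). PLOD3, which also adds sugars to hydroxylysine, lay at 45.7, 45.9 and 42.7 CPM in si-Control and at 41.9, 42.6 and 42.8 CPM in the libraries labelled si-CITED2. These groups overlapped as well, with a log2 fold change of -0.08 (95% interval -0.21 to 0.05, adjusted p = 0.431 from edgeR). The exons of PLOD3 overlap those of ZNHIT1, on the opposite strand, by 429 bases, and ZNHIT1 was not called at 21.5 to 24.3 CPM over all libraries (adjusted p = 0.593 from edgeR). The intervals of PLOD1 and PLOD3 both ended below that of PLOD2.

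Ratios taken within a library need no scaling between libraries. The log2 ratio of PLOD2 to PLOD3 counts was 3.13, 3.13 and 3.22 in si-Control and 3.85, 3.81 and 3.85 in the libraries labelled si-CITED2, a difference of 0.68. That of PLOD2 to PLOD1 was 2.63 ± 0.0924 (SD, n = 3) in si-Control and 3.13 ± 0.0492 in the libraries labelled si-CITED2, a difference of 0.50. Neither ratio overlapped between the groups, and for each the exact permutation test (two-sided) gave p = 0.1, the smallest value that 3 libraries against 3 allow (adjusted p = 0.233 over the 7 ratios compared). The ratio of PLOD3 to PLOD1 overlapped between the groups (difference -0.18, exact permutation p = 0.2). Counted per kilobase of the longest coding transcript, PLOD2 made up 74.2 ± 0.485% of the lysyl hydroxylase level in si-Control and 81 ± 0.413% in the libraries labelled si-CITED2 (SD, n = 3).

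**Figure D2:**
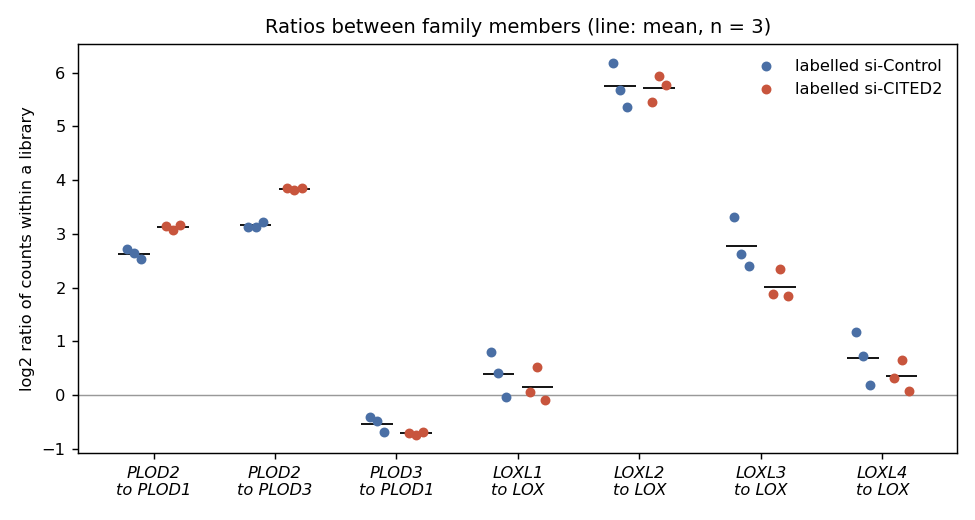
Log2 ratio of counts within a library (vertical axis) for 7 pairs of family members, with points for the 3 libraries of each group and lines for means. The ratios of PLOD2 to PLOD1 and to PLOD3 were higher in every library labelled si-CITED2, and that of LOXL3 to LOX was lower.

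Among the lysyl oxidases, LOXL2 carried most of the mRNA and was the one called. LOXL2, which has been linked to invasion and acts on collagen IV, lay at 83.9, 83.3 and 75.3 CPM in si-Control and at 116.4, 116 and 123.8 CPM in the libraries labelled si-CITED2. The groups stood well apart. The mean went from 80.8 ± 4.79 to 119 ± 4.42 CPM (SD, n = 3), a log2 fold change of 0.55 (SE 0.0566, 95% interval 0.43 to 0.67, adjusted p = 2.42e-06 from edgeR), or 1.47-fold. By annotation the exons of LOXL2 overlap those of ENTPD4 by 120 bases on the same strand and those of AC090197.1 by 178 bases on the opposite strand. ENTPD4 lay between 51.9 and 55.2 CPM in si-Control and between 54.2 and 58 CPM in the libraries labelled si-CITED2 and was not called (adjusted p = 0.564 from edgeR).

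LOX, the founding member of the family, was barely expressed. Its counts were 30, 47 and 36 in si-Control and 51, 46 and 48 in the libraries labelled si-CITED2, which is 1.13, 1.61 and 1.8 CPM against 2.63, 1.87 and 2.23 CPM. The lowest library labelled si-CITED2 lay just above the highest si-Control library. Its log2 fold change of 0.57 was close in size to that of LOXL2, but the interval was wide (0.06 to 1.08), and the adjusted p was 0.126 from edgeR. The ratio of LOXL2 to LOX accordingly overlapped between the groups (log2 difference -0.02, exact permutation p = 1), and its sign turned with the library left out. The exons of LOX overlap those of SRFBP1, on the opposite strand, by 138 bases. SRFBP1 lay far above LOX, between 27 and 32 CPM in si-Control and between 25.2 and 27.5 CPM in the libraries labelled si-CITED2, and was not called (log2 fold change -0.17, adjusted p = 0.161 from edgeR). Since the strand setting is unknown, the low LOX counts may hold reads of SRFBP1, which was not tested. At these counts, a difference of the size seen for LOXL2 did not pass in LOX after adjustment.

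The other lysyl oxidases were not called. LOXL3 was the second most abundant, at 11.4, 10 and 9.59 CPM in si-Control and 9.74, 9.53 and 8.09 CPM in the libraries labelled si-CITED2, with overlapping groups. Its log2 fold change was -0.18 (95% interval -0.43 to 0.06, adjusted p = 0.335 from edgeR), which ended below the interval of LOXL2. The log2 ratio of LOXL3 to LOX was 2.78 ± 0.474 (SD, n = 3) in si-Control and 2.02 ± 0.276 in the libraries labelled si-CITED2, without overlap (exact permutation p = 0.1, adjusted p = 0.233). The difference of -0.76 was -0.49 without si-Control replicate 1 and -0.95 without si-Control replicate 3. LOXL1, which is tied to elastic fibres, lay between 1.75 and 2.15 CPM in si-Control and between 2.09 and 2.73 CPM in the libraries labelled si-CITED2, and these overlapped (log2 fold change 0.34, 95% interval -0.10 to 0.77). LOXL4 lay between 2.05 and 2.67 CPM and between 2.37 and 3.3 CPM, and these overlapped too (log2 fold change 0.23, 95% interval -0.19 to 0.65). Their adjusted p-values were 0.312 and 0.493 from edgeR. LOXL1 is uncertain for the same reason as LOX, since the antisense gene LOXL1-AS1 overlaps its exons by 335 bases and was counted at 6.15 to 7.24 CPM in si-Control. LOXL4 shares 152 exonic bases with AL139241.1 on the opposite strand. Likewise LOXL3 shares 625 exonic bases with HTRA2 and 216 with DOK1, both on the opposite strand. HTRA2 and DOK1 were not called (adjusted p of 0.804 and 0.79 from edgeR). Per kilobase, LOXL2 made up 82.8 ± 0.261% of the lysyl oxidase level in si-Control and 87.2 ± 1.63% in the libraries labelled si-CITED2, whereas LOXL3 made up 10.7 ± 0.62% and 6.8 ± 0.784% (SD, n = 3).

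P4HA3, a catalytic subunit of collagen prolyl 4-hydroxylase, had the largest fold change of the 10 genes at a low level. Its counts were 78, 74 and 46 in si-Control and 95, 116 and 118 in the libraries labelled si-CITED2, or 2.94, 2.53 and 2.3 CPM against 4.9, 4.71 and 5.49 CPM. Every library labelled si-CITED2 lay well above every si-Control library. The log2 fold change was 0.95 (SE 0.164, 95% interval 0.60 to 1.30, adjusted p = 0.000575 from edgeR), or 1.93-fold. Its interval overlapped that of PLOD2. On the opposite strand, the exons of P4HA3 overlap those of P4HA3-AS1 by 38 bases and those of PPME1 by 166 bases. PPME1 was itself called. It lay between 91.5 and 94.2 CPM in si-Control and between 78.7 and 86.9 CPM in the libraries labelled si-CITED2 (log2 fold change -0.18, adjusted p = 0.0308 from edgeR), the opposite direction to P4HA3. As for LOX, the strand setting is unknown, so the low P4HA3 counts may hold reads of PPME1, which was not tested. SERPINH1, the collagen chaperone, lay at 72, 74.6 and 66 CPM in si-Control and at 71.1, 82.4 and 74.3 CPM in the libraries labelled si-CITED2. The groups overlapped, and the log2 fold change was 0.10 (95% interval -0.04 to 0.24, adjusted p = 0.357 from edgeR).

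**Figure D3:**
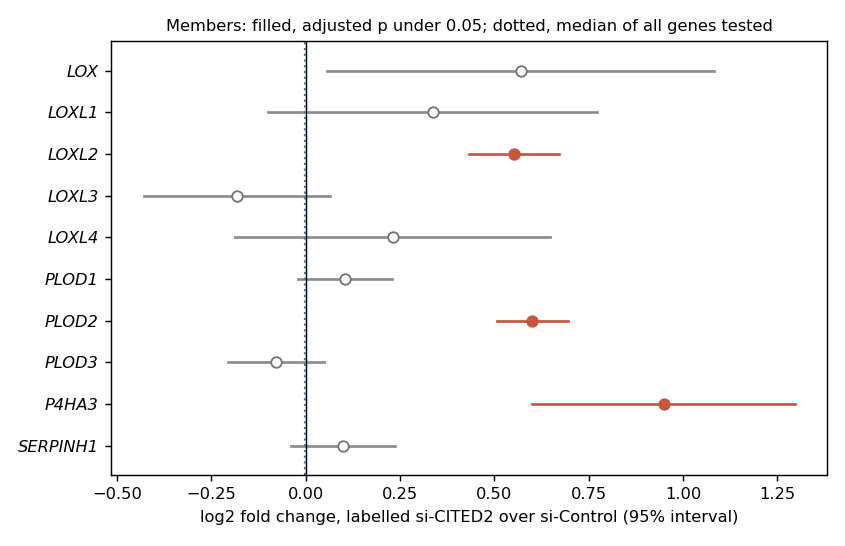
Log2 fold change of the 10 genes, libraries labelled si-CITED2 over si-Control (horizontal axis), with 95% intervals. Filled points mark an adjusted p under 0.05, and the dotted line is the median of all genes tested, -0.0014. The intervals of LOXL2, PLOD2 and P4HA3 lie above 0, as does that of LOX, which did not pass after adjustment.

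Levels were compared between genes per kilobase of the longest coding transcript in GENCODE 29, since a longer mRNA gives more reads. Which transcripts PC3 cells use is unknown, so only wide gaps are firm. In si-Control, PLOD2 stood first at 107 ± 0.659 CPM per kilobase, above 96.2% of the genes with a length. LOXL2 (22.8 ± 1.35), PLOD1 (22 ± 1.32) and SERPINH1 (20.9 ± 1.31) followed, and neighbours in this trio did not differ beyond their ranges. PLOD3 came next at 15.3 ± 0.619 CPM per kilobase, and LOXL3 was far lower at 2.95 ± 0.269. P4HA3 (1.14 ± 0.144), LOXL1 (0.837 ± 0.087), LOXL4 (0.664 ± 0.0908) and LOX (0.296 ± 0.0672) closed the order, with no overlap between neighbours. LOX lay above only 6.64% of the genes.

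In the libraries labelled si-CITED2 the order of the means was the same, but the gaps had moved. LOXL2, at 33.5 ± 1.25 CPM per kilobase, now stood clear of PLOD1 (23.6 ± 0.528) and SERPINH1 (22.4 ± 1.71), whose ranges still overlapped. P4HA3 reached 2.21 ± 0.179 CPM per kilobase and overlapped LOXL3 at 2.61 ± 0.256. LOXL1 and LOXL4 overlapped as well, at 1.06 ± 0.151 and 0.788 ± 0.128. PLOD2 reached 163 ± 2.38 and LOX 0.44 ± 0.0748 CPM per kilobase (SD, n = 3 throughout).

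**Figure D4:**
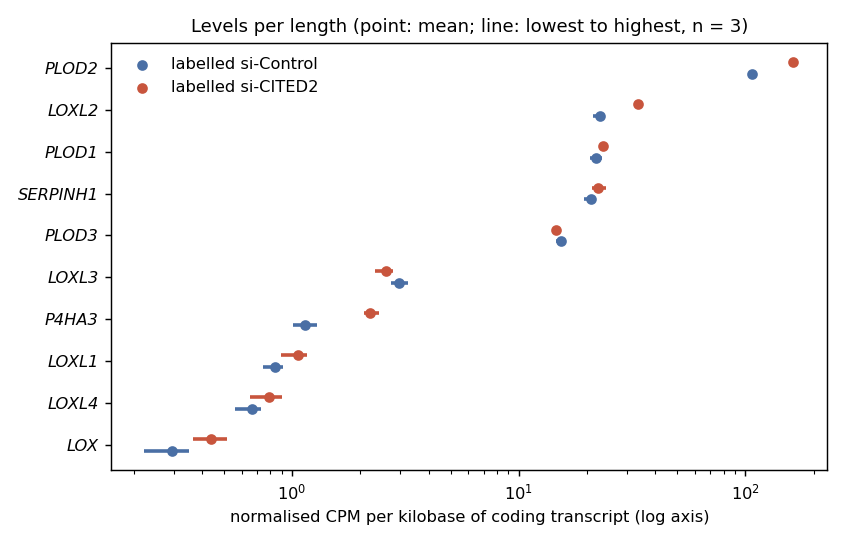
Normalised CPM per kilobase of the longest coding transcript (horizontal log axis) for the 10 genes in the order of their si-Control means, with points for means and lines from the lowest to the highest of 3 libraries. PLOD2 is highest in both groups, and LOXL2 leaves PLOD1 and SERPINH1 behind in the libraries labelled si-CITED2.

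Other genes of collagen maturation were taken from 3 lists with 36 genes in all, of which 32 passed the filter on low counts. Of these 32, 8 were called higher, 1 was called lower and 23 did not pass, with a median log2 fold change of 0.09. The shares to set beside this count and those of the lists below are 9.36% called higher and 8.09% lower over all genes tested. In the list of modification and folding in the endoplasmic reticulum, 6 of 15 genes rose, 0 fell (also 0 by DESeq2, and 1 at an unadjusted p under 0.05, as COLGALT1, a collagen galactosyltransferase, had a log2 fold change of -0.13 and an unadjusted p of 0.0164 from edgeR), and the median was 0.13. The 6 were the remaining prolyl 4-hydroxylase subunits P4HA1 and P4HA2, the prolyl 3-hydroxylases P3H1 and P3H2, and the peptidyl-prolyl isomerases PPIB and FKBP14. P3H1 and FKBP14 passed narrowly (adjusted p of 0.0488 and 0.0478 from edgeR), and DESeq2 called 4 genes of the list higher. Without si-Control replicate 3 or without si-CITED2 replicate 1, 2 genes of the list were called higher, and without si-CITED2 replicate 2 there were 3.

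P4HA2 and P4HA1, the nearest relatives of P4HA3, rose in every fit that left out a library. P4HA2 lay at 55.8, 57.6 and 57.1 CPM in si-Control and at 85.3, 95.9 and 101.4 CPM in the libraries labelled si-CITED2 (log2 fold change 0.73, SE 0.0635, adjusted p = 3.47e-07 from edgeR). P4HA1 lay at 132.5, 135.3 and 126.9 CPM in si-Control and at 161, 159.3 and 169.3 CPM in the libraries labelled si-CITED2 (log2 fold change 0.31, SE 0.0497, adjusted p = 0.000288 from edgeR). Neither overlapped between the groups, and all 3 catalytic subunits were thus higher. P4HB, the subunit that pairs with each of them, had a log2 fold change of 0.02 (95% interval -0.08 to 0.12). Per kilobase, P4HA1 made up 71.9 ± 0.588% of the 3 catalytic subunits in si-Control and 65.5 ± 1.52% in the libraries labelled si-CITED2, P4HA2 26.4 ± 0.74% and 32 ± 1.56%, and P4HA3 only 1.77 ± 0.209% and 2.52 ± 0.12% (SD, n = 3).

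In the list of procollagen and oxidase processing, 2 of 9 genes tested rose and 0 fell (0 at an unadjusted p under 0.05 from edgeR, and 0 by DESeq2), with a median log2 fold change of 0.17. FURIN, the proprotein convertase that activates BMP1, lay at 91.1, 93.2 and 93.3 CPM in si-Control and at 154.1, 166.8 and 158.8 CPM in the libraries labelled si-CITED2 (log2 fold change 0.79, SE 0.0504, adjusted p = 7.64e-09 from edgeR). BMP1, the protease that cleaves procollagen and releases LOX from its propeptide, lay at 24.5, 25.4 and 23 CPM in si-Control and at 29.3, 35.2 and 33.5 CPM in the libraries labelled si-CITED2 (log2 fold change 0.43, SE 0.0788, adjusted p = 0.00099 from edgeR). Both stood apart between the groups. The scaffold genes FN1 and FBLN5, which help to place oxidases on fibres, had log2 fold changes of 0.17 and 0.05 (adjusted p of 0.345 and 0.841 from edgeR). POSTN, with 1 count in all, and TLL1, with 0, lay under the detectable number in every library.

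In the list of procollagen export, 0 of 8 genes rose (2 at an unadjusted p under 0.05 from edgeR, 0 by DESeq2, 1 without si-Control replicate 1 and 1 without si-CITED2 replicate 1) and 1 fell, with a median log2 fold change of 0.06. MIA3, also called TANGO1, which loads procollagen into carriers, lay at 157.5, 155.8 and 177.7 CPM in si-Control and at 144.9, 143.8 and 144.5 CPM in the libraries labelled si-CITED2 (log2 fold change -0.18, SE 0.0551, adjusted p = 0.0332 from edgeR). That call was lost without si-Control replicate 3, where the log2 fold change was -0.12, and without any one of the libraries labelled si-CITED2. With 8.09% of all genes tested called lower, 1 such call among 8 genes lies near the general share.

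**Figure D5:**
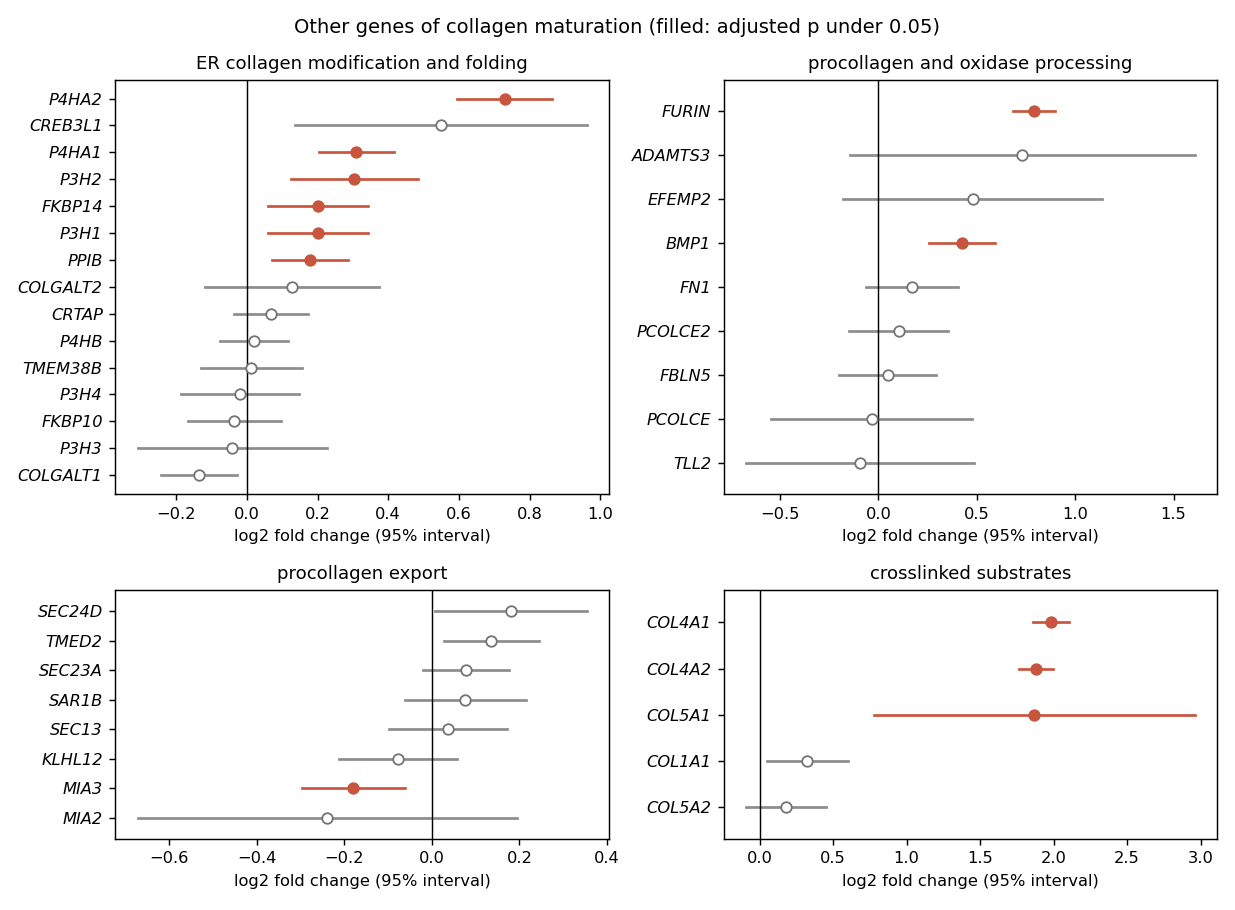
Log2 fold change with 95% interval (horizontal axes) of the genes tested in the lists of modification and folding, processing, export and crosslinked substrates, libraries labelled si-CITED2 over si-Control. Filled points mark an adjusted p under 0.05, with P4HA2, FURIN and BMP1 to the right of 0, MIA3 to the left, and COL4A1 and COL4A2 near 2 on the log2 scale.

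Of 10 listed substrate genes, which leave out many collagen chains, COL4A1 and COL4A2, the main chains of basement membrane collagen, had the highest CPM in both groups. COL4A1 lay between 29.2 and 30.8 CPM in si-Control and between 113.9 and 122.4 CPM in the libraries labelled si-CITED2 (log2 fold change 1.98), and COL4A2 between 52 and 57.7 CPM and between 199.5 and 208.5 CPM (log2 fold change 1.88). The adjusted p of each was 2.71e-13 from edgeR. Of the 5 substrate genes that passed the filter, 3 rose and 0 fell (0 at an unadjusted p under 0.05 from edgeR, and 0 by DESeq2), the third being COL5A1 with at most 19 counts in a library (log2 fold change 1.87, adjusted p = 0.0187 from edgeR). By DESeq2, and with at least 10 counts required in every library, 2 of these genes were called higher. The same number was called without si-Control replicate 2 or without si-CITED2 replicate 3. COL1A1 had a log2 fold change of 0.32 (adjusted p = 0.105 from edgeR) at 4.95 to 6.79 CPM over all libraries. COL1A2 and COL3A1 had at most 2 and 8 counts, and the counts of elastin (ELN) were 3, 4 and 1 in si-Control and 0 in the libraries labelled si-CITED2.

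Known targets of both pathways named above were set beside these values, and their part in the changes of the 10 genes was not tested. All 8 TGF-beta reference genes were higher in the libraries labelled si-CITED2, with a median log2 fold change of 2.62. PMEPA1, a feedback gene of the pathway, had a log2 fold change of 3.60 (adjusted p = 1.52e-16 from edgeR). This list was drawn up with earlier results of these data known and is not independent evidence. Of the 9 hypoxia reference genes that passed the filter, 3 were higher (log2 fold change 0.44 for VEGFA, 0.31 for SLC2A1 and 0.31 for P4HA1), 0 were lower by edgeR at an adjusted p under 0.05 (0 by DESeq2), and 2 were lower at an unadjusted p under 0.05, namely ADM (-0.30) and BNIP3 (-0.12). The carbonic anhydrase gene CA9, a strong hypoxia target, had at most 1 count in any library.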

How the data were processed

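RNA was extracted with Trizol and libraries were made with a SMARTer mRNA-seq kit. For each of the 6 libraries the authors deposited a file of read counts by gene symbol, not normalised. The submitters' processing notes name TopHat, edgeR and hg19 without versions, and the counting program, annotation and strand setting are not given in the sources used here. The files carry no coordinates, and no position other than those of the RefSeq promoter windows is given.

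The row with most counts was kept for each symbol, which left out 1275 rows with 0.0821% of all counts. The fit was made with edgeR 4.0.16 under R 4.3.3 (filterByExpr, TMM, glmQLFit and glmQLFTest, without a replicate block), with Benjamini-Hochberg adjustment over all 16314 genes. CPM were computed from the counts with TMM-adjusted library sizes. TMM factors ranged from 0.993 to 1.01. Standard errors were taken from the F statistic. Ratios within a library had 0.5 added to each count, and intervals are at 95%. The scripts were tested on simulated data.

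Same-numbered replicates did not deviate together (correlations from -0.037 to 0.0462), and no library repeated another, since the lowest chi-square over its degrees of freedom between replicates was 2.89. Total counts of 19508925 to 28936374 set the precision. The 10 members and the gene lists were chosen with earlier results of these data known. Genes were named as the 10 members, CITED2 and, from each list, the 2 largest calls in each direction. Other genes were named after their values were seen. Some items that this rule or the marker lists cover are not reported here. Overlaps and lengths were taken from GENCODE 29. Alternatives were RLE or no scaling, DESeq2 1.42.0, 2 other filters, a replicate block, added-up rows and leaving out each library. The leukocyte and endothelial markers were low (PTPRC at most 2 counts) except CD68, which was not called (adjusted p = 0.404).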

Additional observations from a re-analysis of the deposited data

How the results depend on the processing

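PLOD2, LOXL2 and P4HA3 stayed past an adjusted p of 0.05 in all 13 alternative fits, and the 7 others stayed short of it without a change of sign. Leaving out each library gave log2 fold changes from 0.59 to 0.61 for PLOD2, 0.50 to 0.58 for LOXL2 and 0.88 to 1.05 for P4HA3. It gave 2 to 5 genes called higher in the folding list, and 0 to 1 higher and 0 to 1 lower in the export list. Library size without TMM called 4 folding genes higher and 1 lower, and the replicate block called 4 higher. Leaving out a library gave log2 ratios of LOXL2 to LOX between the groups from -0.21 to 0.20, a change of sign. In the fit that took replicate numbers as a block, log2 fold changes were 0.60 for PLOD2, 0.55 for LOXL2 and 0.95 for P4HA3, and 1405 genes were called higher and 1154 lower, against 1527 and 1319 without it. Whether the numbers pair the libraries is not stated, and the correlations given above show only that no shared deviation was detected. The block changed no other call among the 10 genes. For CITED2, library size without TMM gave 0.22 (adjusted p = 0.0518 from edgeR). LOX, LOXL1, LOXL4 and P4HA3 had under 120 counts per library, which limits the changes detectable in them.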

Other observations

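Some genes below the filter on low counts differed in raw counts between the groups. PDGFRA, a fibroblast marker, was counted 1, 1 and 2 times in si-Control against 11, 8 and 7 times in the libraries labelled si-CITED2. CDH5, an endothelial cadherin, was counted 7, 9 and 4 times against 2, 1 and 0 times. These genes were picked after their values were seen, were not tested, and lie near the smallest detectable number.

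CREB3L1, a transcription factor of collagen secretion, lay at 2.71 ± 0.645 CPM in si-Control and 4.01 ± 0.569 CPM in the libraries labelled si-CITED2 (SD, n = 3), with a log2 fold change of 0.55 that missed the threshold (adjusted p = 0.0643 from edgeR). Its groups overlapped. TMED2, a cargo receptor of early secretory vesicles, had a log2 fold change of 0.14 (adjusted p = 0.0826 from edgeR) without overlap between the groups. FKBP10, a collagen chaperone that acts with PLOD2 in bone, had a log2 fold change of -0.04 (95% interval -0.17 to 0.10).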
